A study of Mus musculus with 4 samples.

Results

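The epidermal growth factor (EGF) receptor family and its ligands were examined as 10 genes: the receptor genes Egfr, Erbb2, Erbb3 and Erbb4, and the ligand genes Areg, Ereg, Epgn, Btc, Hbegf and Tgfa. A peak of open chromatin belonged to a gene when its summit lay nearest to that gene's body among all protein-coding genes and within 100 kb of it. Overlapping peaks of both genotypes were joined into regions, which gave 84 regions for the 10 genes out of 79122 regions in all, 70899 of them within 100 kb of a protein-coding gene. Open chromatin was mapped by ATAC-seq, in which a transposase cuts accessible DNA, in hair follicle stem cells of male mice at postnatal day 70, in the second resting phase of the hair cycle (telogen). The 2 mice called WT here, numbers 13 and 15, carried NFIBfl/fl, NFIXfl/fl and R26-YFPfl/fl without a Cre driver. The 2 knockout mice (dKO), numbers 14 and 16, carried Sox9-CreER on top of the alleles of the WT mice, so that both genotypes shared the floxed Nfib and Nfix alleles and the YFP reporter. The Sox9 promoter drives the inducible Cre, and recombination is therefore limited to Sox9-expressing cells and their descendants. When Cre was induced is not given in the sources used here. All cells were sorted as live, Sca-1 negative, integrin alpha 6 positive and CD34 positive, and dKO cells were also YFP positive, so the gates of the genotypes differed. The comparison asks which accessible sites of these cells differ between WT and dKO, where the genes of NFIB and NFIX are targeted. Both are nuclear factor I (NFI) transcription factors. The presence of Cre and the YFP gate go with the genotype, so they cannot be told apart from the loss of NFIB and NFIX.

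The EGF ligands are made as membrane proteins, are released by proteases and bind receptor tyrosine kinases that pair up and signal through the RAS-MAPK and PI3K pathways. Amphiregulin (Areg), epigen (Epgn) and transforming growth factor alpha (Tgfa) bind EGFR, while epiregulin (Ereg), betacellulin (Btc) and heparin-binding EGF-like growth factor (Hbegf) also bind ERBB4. In skin, EGFR is carried by basal keratinocytes, mice with weakened Egfr or Tgfa have wavy hair, and several of the ligands are induced by wounding.

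Both mice of a genotype share 1 peak list, of 68197 peaks in WT and 63548 in dKO, so no difference below has a spread between mice and none was tested. The value used for height was the pileup, the number of reads or fragments over the summit, divided by the median pileup of the list (73 in WT and 38 in dKO). It is called scaled pileup. For some single-genotype regions the pileup is given that a peak of the same scaled height would have had in the other list. Whether such a peak would have been called also depends on the local background there, and was not tested. The lowest local background was 1.94 times as high in the WT list, so depth and genotype cannot be told apart for weak peaks. In pools of sorted cells, fewer cells with a site and a lower signal in each cell cannot be told apart either. For shared regions the log2 of dKO over WT scaled pileup is given with an exact 95% interval that covers counting error only. Shares carry 95% Wilson intervals, which also cover counting error alone. As a check of the cell label, a peak lay within 1 kb of a gene end at 9 of 10 stem cell markers in the WT list and at 8 of 10 in the dKO list. Nfatc1 had none in either list, and Krt14 had one in WT alone. Of the immune markers 0 of 3 had such a peak, of the endothelial markers 1 of 3 (Kdr), of the melanocyte markers 1 of 3 (Mitf) and of the fibroblast markers 2 of 4 (Col1a1 and Col1a2), the same genes in both lists. Their summed scaled pileup was 3.67 in WT and 2.42 in dKO for the fibroblast markers and 0.247 and 0.447 for the endothelial ones. For the melanocyte markers it was 6.18 and 6.05, all from Mitf, above any single stem cell marker (at most 5.59 and 5.89). The 10 stem cell markers summed to 37.1 and 30.8. Suprabasal markers had such peaks at 4 of 4 genes in WT and 3 of 4 in dKO, summing to 6.16 and 5.63. The part of other cells in the results below was not tested.

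Single-genotype regions lay mainly at a few of the genes. Egfr, which held 31 of the 84 regions, had most of the WT-only ones. Erbb4 and the stretch from Areg to Btc had most of the dKO-only regions, and a region at a gene end was present in both genotypes at 9 of 10 genes. Of the 84 regions, 13 were WT-only (15.5%, interval 9.27 to 24.7) and 17 were dKO-only (20.2%, 13.04 to 30.04), while 54 were shared. Over all regions near protein-coding genes 21.2% were WT-only, 12.8% were dKO-only and 66.0% were shared. At Egfr 29.0% of the regions were WT-only (16.1 to 46.6), an interval that holds the share of all regions. Regions of a gene are not independent of each other: without the 11 regions of Erbb4 the dKO-only share was 15.1%. Without the 31 regions of Egfr the WT-only share was 7.55% (2.97 to 17.9) and the dKO-only share 28.3%. Of the receptor genes' regions 9 were WT-only, 8 were dKO-only and 31 were in both lists, and for the ligand genes these counts were 4, 9 and 23. By place, 0 WT-only, 1 dKO-only and 9 shared regions lay within 1 kb of a gene end, where 6.21%, 3.55% and 90.2% of all regions fell into these classes. Inside gene bodies 5 were WT-only and 10 were dKO-only, against 25.6% and 14.4% of all such regions, and 28 were shared. Between genes 8 were WT-only and 6 dKO-only, against 22.8% and 15.7%, and 17 were shared.

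**Figure D1:**
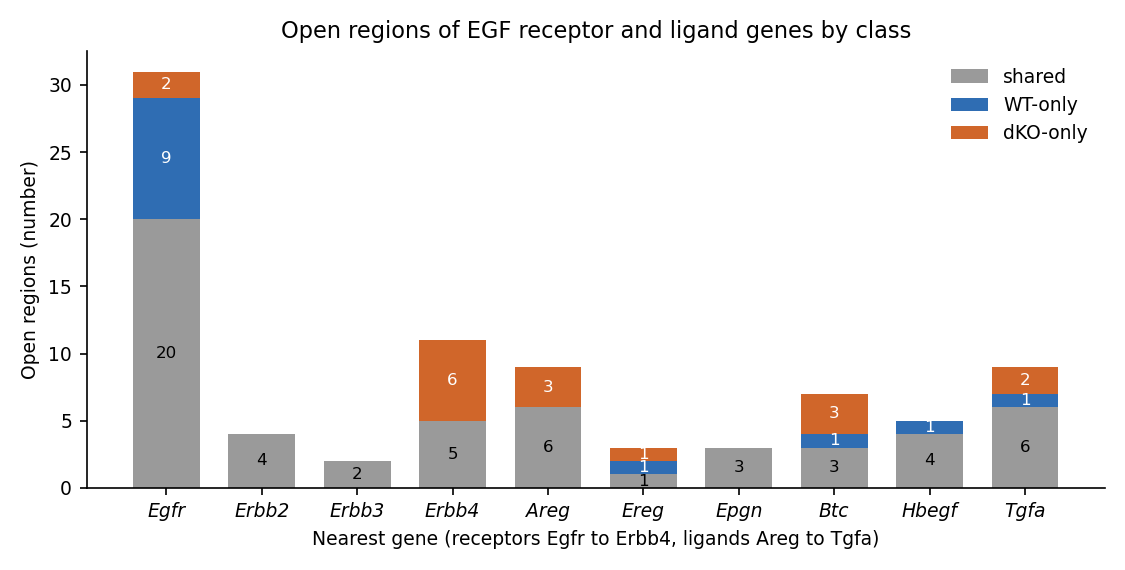
Number of open regions of each gene by class, as stacked bars (grey shared, blue WT-only, orange dKO-only). Egfr holds 31 of the 84 regions and 9 of the 13 WT-only ones, and Erbb4 holds 11 regions and 6 of the 17 dKO-only ones.

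Among the 54 shared regions, 11 were at least 2-fold higher in dKO and 2 were at least 2-fold lower, and 8 of those 11 belonged to Erbb4 and Areg. Over all shared regions 6.35% were at least 2-fold higher and 8.79% at least 2-fold lower. The median log2 ratio was 0.11 over the members' shared regions and −0.15 over all shared regions. The members' median had a rank interval of −0.31 to 0.26 that treats regions as independent. It turned to −0.14 without Erbb4, to −0.14 with nearest genes within 20 kb and to −0.19 with every region within 100 kb of a member. Regions that are weak in WT are those most often higher in dKO. Of all shared regions with a WT scaled pileup under 0.5, 25.1% were at least 2-fold higher in dKO and 0.0576% at least 2-fold lower. The lowest scaled pileup of the dKO list was 0.237, so regions weak in WT had little room to be lower and still be shared. Of the members' 10 shared regions in that range 7 were at least 2-fold higher, 6 of them at Areg and Erbb4. Between 0.5 and 1 the share was 8.15% over all shared regions and 4 of 12 for the members. Above 1 it was 0 of 32 for the members. Over all shared regions it was 3.04% from 1 to 2, 0.510% from 2 to 4 and 0.0438% from 4 upward. When pileups were scaled to the median of shared peaks, the median over all shared regions moved from −0.15 to 0.02, and with deposited fold enrichment in place of pileup it was 0.07. With fold enrichment 4 of the 54 member regions were at least 2-fold higher in dKO (2 at Areg and 1 each at Erbb4 and Egfr), and 0 were at least 2-fold lower. By that measure 2.29% of all shared regions were at least 2-fold higher and 2.62% at least 2-fold lower.

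**Figure D2:**
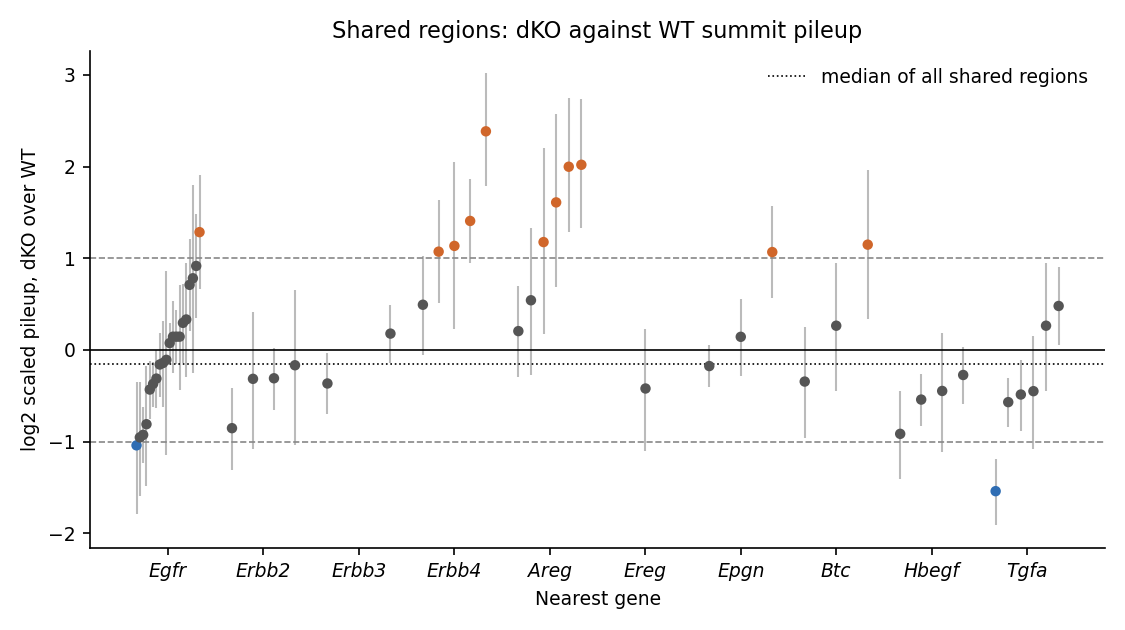
Log2 of dKO over WT scaled pileup for each shared region (points) with exact 95% counting intervals (vertical lines), by gene. Dashed lines mark 2-fold, the dotted line marks the median of all shared regions at −0.15, and points past 2-fold are coloured: of the 11 above, 4 are at Erbb4, 4 at Areg and 1 each at Egfr, Epgn and Btc, and the 2 below are at Egfr and Tgfa.

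Start sites were open in both genotypes at the 7 genes for which a start was given. Promoters from RefSeq (GRCm38.p6, the same assembly as mm10), running from 250 bases before to 50 after a gene's start, were matched for these genes (7 of the 10), and each overlapped a shared region. All 300 bases lay within both peaks at Egfr, Erbb2, Erbb4, Areg and Tgfa. At Epgn 300 bases lay in the WT peak and 287 in the dKO peak, and at Btc 172 and 158. A full NFI site, TTGGC followed after any 5 bases by GCCAA, which reads the same on both strands, was found in 0 of the 7 promoters and in 0.0329% of 21263 protein-coding promoters. Its core TTGGC, searched on both strands, was found at Egfr and Tgfa, against 47.9% of all promoters. The AP-1 letters TGANTCA were found in 0 of 7, against 6.99%. The letters TATAAA, searched on both strands, were found at Areg and Epgn, against 12.6% of all promoters. These matches are descriptions of letters and not of bound sites. Below are 4 of these promoters, shown because Egfr and Tgfa hold the NFI core letters and Areg and Epgn hold the TATAAA letters. Each reads 5′ to 3′ on the strand of the gene, with the TTGGC core (on either strand) or TATAAA in capitals. They lie at chr11:16751953-16752252 (Egfr), chr6:86194972-86195271 (Tgfa), chr5:91139349-91139648 (Areg) and chr5:91027267-91027566 (Epgn), all on the plus strand.
Egfr: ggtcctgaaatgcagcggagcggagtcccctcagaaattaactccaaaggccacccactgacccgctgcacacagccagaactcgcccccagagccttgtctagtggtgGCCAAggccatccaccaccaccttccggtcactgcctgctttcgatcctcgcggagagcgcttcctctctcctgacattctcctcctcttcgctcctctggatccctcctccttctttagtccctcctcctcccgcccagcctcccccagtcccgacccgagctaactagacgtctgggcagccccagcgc
Tgfa: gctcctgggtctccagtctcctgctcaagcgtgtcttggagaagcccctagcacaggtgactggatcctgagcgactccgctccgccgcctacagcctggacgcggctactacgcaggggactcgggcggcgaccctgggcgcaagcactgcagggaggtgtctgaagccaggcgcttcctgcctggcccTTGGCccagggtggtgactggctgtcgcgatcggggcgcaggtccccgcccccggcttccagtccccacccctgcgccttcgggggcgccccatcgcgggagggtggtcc
Areg: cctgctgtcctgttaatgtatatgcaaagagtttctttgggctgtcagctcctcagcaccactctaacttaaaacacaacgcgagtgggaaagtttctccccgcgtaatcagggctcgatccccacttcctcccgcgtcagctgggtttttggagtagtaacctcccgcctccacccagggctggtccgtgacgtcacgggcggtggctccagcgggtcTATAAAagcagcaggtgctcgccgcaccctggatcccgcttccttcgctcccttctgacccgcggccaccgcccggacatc
Epgn: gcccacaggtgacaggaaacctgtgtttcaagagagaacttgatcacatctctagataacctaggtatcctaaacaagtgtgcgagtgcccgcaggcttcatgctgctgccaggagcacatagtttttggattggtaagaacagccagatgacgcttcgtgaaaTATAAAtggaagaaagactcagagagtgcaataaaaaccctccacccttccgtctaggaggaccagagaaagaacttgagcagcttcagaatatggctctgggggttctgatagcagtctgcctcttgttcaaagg
The GC content of these promoters was 62.3% at Egfr, 70.7% at Tgfa, 59.3% at Areg and 47.3% at Epgn, against a median of 56.3% over protein-coding promoters.

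Egfr (gene 13649, chromosome 11, 16752203 to 16913907, mm10), the receptor for which the family is named, had more regions than any other member, and it leaned towards WT. Its regions were WT-only at 9 places, dKO-only at 2 and shared at 20. A WT-only excess of 7 or more was seen at 133 of 15768 genes with regions. Among the 184 genes with at least as many regions as Egfr, 29.3% had such an excess. The excess was 4 when both lists were cut to equal length and 3 when only peaks from the stronger 50% of a list by −log10 q were counted. The 20 shared regions had a median log2 ratio of −0.02, against −0.15 over all shared regions, and this median was 0.16 when scaled to shared peaks and 0.25 with fold enrichment. The region at the start (16751753 to 16754284) was the strongest of Egfr in both lists, with a pileup of 498 in WT and 273 in dKO. Its scaled pileup was 6.82 in WT and 7.18 in dKO, a log2 ratio of 0.07 (−0.14 to 0.29).

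The WT-only regions of Egfr fell into an upstream and an intragenic group, and 3 of the 4 upstream ones had a higher −log10 q than any intragenic one. At 7.39 kb before the start, a region (16744372 to 16745115) had a WT pileup of 110 and no dKO peak. A dKO peak of the same scaled height would have had a pileup of 57.3, while the lowest pileup in the dKO list was 9. Whether such a peak would have been called over the dKO background there was not tested. The WT-only region had a deposited −log10 q of 77.4, and 2.16% of WT-only regions near genes had a value as high. At 14.6 kb before the start (16737302 to 16738094) the WT pileup was 96, with a −log10 q of 51.7. Another WT-only region 12.8 kb before the start (16739169 to 16739630) had a pileup of 65 and a −log10 q of 23.4. The last 2 overlapped the long noncoding RNA gene Gm39583 (16687937 to 16742258). The most distant region of Egfr, 99.1 kb before the start (16652673 to 16653444), was also WT-only, with a pileup of 81 and a −log10 q of 63.2. Upstream of Egfr, 4 of 7 regions were therefore WT-only and 0 were dKO-only, where 22.8% and 15.7% of regions between genes were. This stretch was not among the sets fixed in advance. Of the 3 shared upstream regions, the one 68.6 kb before the start had a pileup of 108 in WT and 29 in dKO (log2 ratio −0.96, −1.60 to −0.35).

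Of the 23 regions within the Egfr body 5 were WT-only and 2 were dKO-only. Over all regions in gene bodies these shares were 25.6% and 14.4%, so neither class was more common here. The highest WT-only one (16804081 to 16804541, 52.1 kb into the gene) had a pileup of 140, the highest of the WT-only regions, and a −log10 q of 31.5, over a local background 7.72 times the lowest of the list. The other 4, between 91.1 and 125.6 kb into the gene, had pileups of 26, 45, 58 and 17. Both dKO-only regions (16819022 to 16820134 and 16849097 to 16849311) had a pileup of 26. A WT peak of that scaled height would have had a pileup of 49.9, but whether it would have been called was not tested. The second dKO-only region lay on a local background 4.08 times the lowest of the dKO list. At the next shared region (16850443 to 16851784) the local WT background was 41.2. Of the shared intragenic regions, 1 was at least 2-fold higher in dKO (16776153 to 16777267), with a pileup of 41 in WT and 52 in dKO and a log2 ratio of 1.28 (0.67 to 1.91). Another (16816432 to 16817556) was at least 2-fold lower, with 87 and 22 and a log2 ratio of −1.04 (−1.79 to −0.35). With deposited fold enrichment that ratio was −0.64. A strong region 98.9 kb into the gene (16850443 to 16851784) had 420 in WT and 115 in dKO, a log2 ratio of −0.93 (−1.24 to −0.63), whereas with fold enrichment (9.98 and 10.4) the direction turned. The noncoding gene Egfros (16809648 to 16830750), which lies within Egfr, was overlapped by 4 shared regions and 1 dKO-only region.

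**Figure D3:**
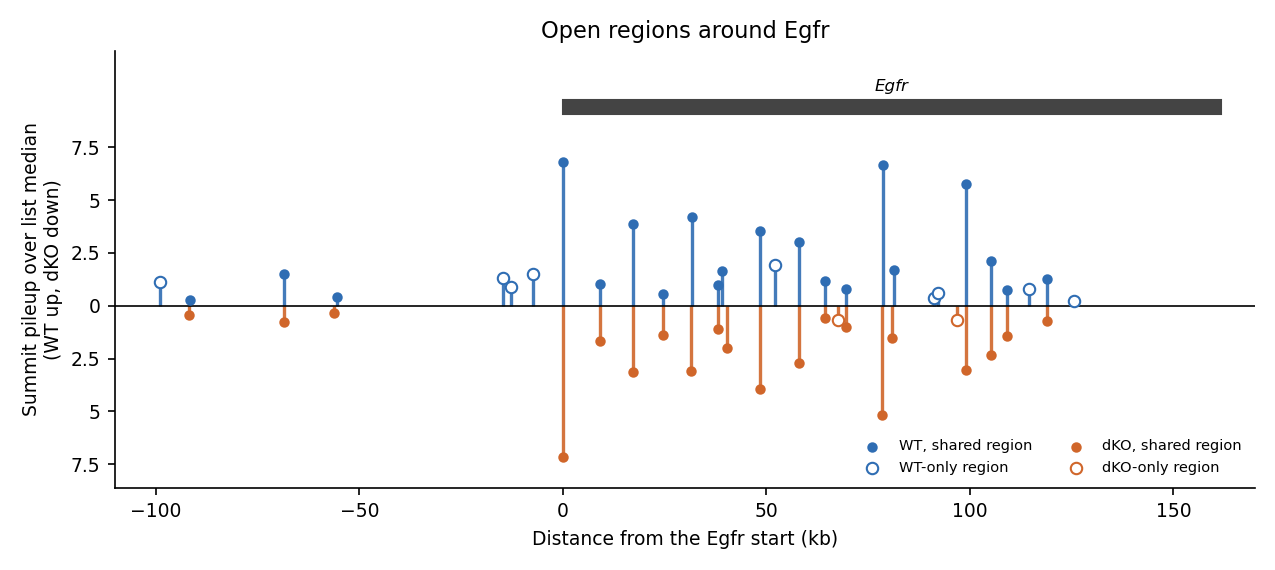
Scaled summit pileup of each Egfr region against its distance from the Egfr start in kb, with WT values upward in blue and dKO values downward in orange. Open circles are regions in 1 list only: 4 of the 7 regions before the start are WT-only, while the start itself reaches 6.82 in WT and 7.18 in dKO.

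Erbb2 and Erbb3 showed no single-genotype region. Erbb2 (chromosome 11, 98412484 to 98437716), the partner receptor with no known ligand of its own, had 4 shared regions with log2 ratios from −0.85 to −0.17. At its start (98412062 to 98413103) the pileup was 250 in WT and 105 in dKO, a log2 ratio of −0.31 (−0.65 to 0.02). The lowest ratio, −0.85 (−1.31 to −0.41), was at a region 6.55 kb into the gene (98418747 to 98419783) with 191 in WT and 55 in dKO, and with fold enrichment (11.4 and 10.3) the values were closer. One of its regions (98406601 to 98407014) was counted because its dKO summit lay nearest to Erbb2, while its WT summit lay nearest to Pgap3. Erbb3 (chromosome 10, 128567523 to 128589635), whose kinase is impaired and which signals through its partners, had 2 shared regions. The region at its gene end of higher coordinate (128588748 to 128590809) had 265 in WT and 107 in dKO (log2 ratio −0.37, −0.70 to −0.04), and the intragenic one (128583748 to 128585004) had 231 and 136 (0.18, −0.14 to 0.49). All shared regions of both receptor genes were under 2-fold, as were 39679 of the 46759 shared regions near protein-coding genes. Of 15768 genes with regions, 240 had the same numbers of WT-only, dKO-only and shared regions as Erbb2. For Erbb3 there were 1492 such genes, each gene itself counted.

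Erbb4 (gene 13869, chromosome 1, 68031884 to 69108576), the neuregulin and betacellulin receptor gene, leaned the other way, with 6 dKO-only regions, 5 shared and 0 WT-only. A dKO-only excess of 6 or more was found at 59 of 15768 genes, and at 3.08% of the 1592 genes with at least as many regions. Erbb4 spans 1077 kb, and in bodies of genes over 500 kb dKO-only regions were more common than elsewhere, at 24.0%, with 22.7% WT-only. In the Erbb4 body 6 of 9 regions away from the gene ends were dKO-only. Of shared regions in such long genes 15.2% were at least 2-fold higher in dKO, and of the 3 in the Erbb4 body all were. The dKO-only peaks were low. Their pileups were 33, 11, 16, 12, 22 and 17 in the order of coordinates, and the scaled values ran from 0.289 to 0.868. WT peaks of the same scaled heights would have had pileups from 21.1 to 63.4, where the lowest WT pileup was 14. Whether they would have been called over the local WT background was not tested. None of the 6 came from the stronger 50% of the dKO list by −log10 q, and 4 passed a q value of 1e-05.

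The shared regions of Erbb4 had a log2 ratio above 0 at all 5, with a median of 1.13. Of all shared regions near protein-coding genes, 18215 of 46759 had a ratio above 0. The highest WT scaled pileup at Erbb4 was 0.973. Of all shared regions, 25.1% of those under 0.5 in WT and 8.15% of those from 0.5 to 1 were at least 2-fold higher in dKO. In these ranges 0.0576% and 4.94% were at least 2-fold lower. The largest difference was 604 kb into the gene (68503938 to 68505128), where the pileup was 32 in WT and 87 in dKO. Its scaled pileup was 5.22-fold higher in dKO (log2 ratio 2.38, 1.79 to 3.02), and with fold enrichment the log2 ratio was 1.38. Near the far end of the gene, 2 neighbouring regions (68049655 to 68050147 and 68051180 to 68052093) had 53 and 71 in WT and 58 and 98 in dKO, with log2 ratios of 1.07 (0.51 to 1.64) and 1.41 (0.95 to 1.87). There the local background was 4.05 times the lowest of the list in dKO and between 1.93 and 1.94 times in WT, and with fold enrichment the log2 ratios were 0.02 and 0.36. The dKO-only region beside them (68046918 to 68047380) lay on a background 4.01 times the lowest. Beyond the gene (67961029 to 67961818) 21 in WT and 24 in dKO gave a log2 ratio of 1.13 (0.23 to 2.05). At the start (69105338 to 69108891) the pileup was 71 in WT and 52 in dKO, a log2 ratio of 0.49 (−0.05 to 1.03). By scaled pileup the start was thus under 2-fold and the shared regions deep in the gene above it. The start interval reaches 2-fold, however, and overlaps that of the region at 68049655. With fold enrichment only the region 604 kb into the gene stayed past 2-fold.

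**Figure D4:**
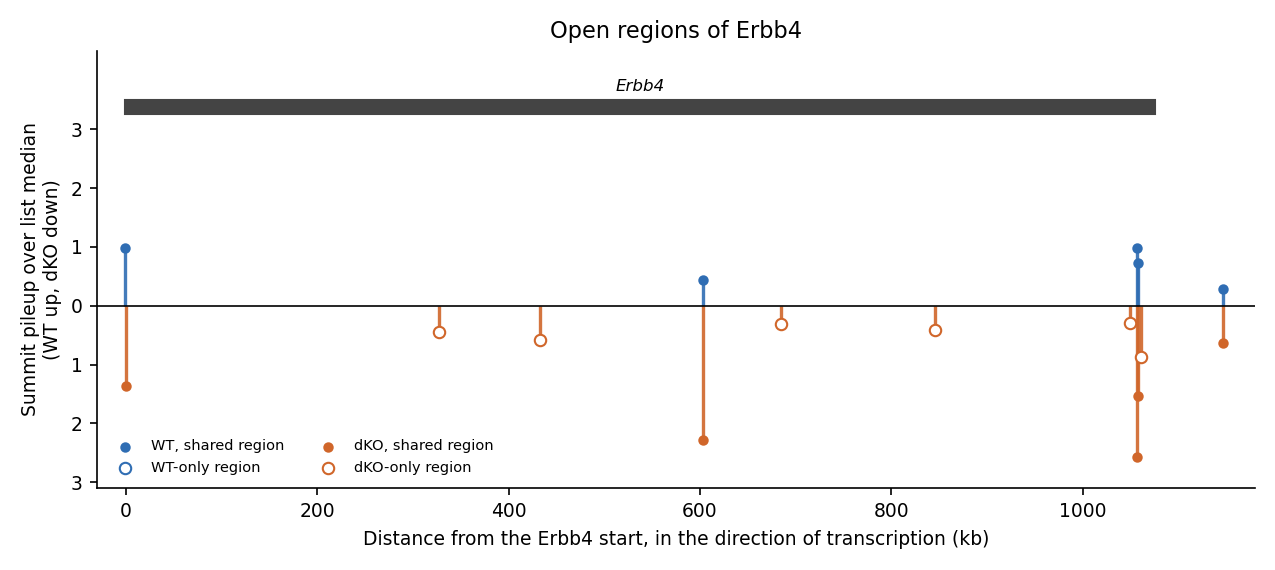
Scaled summit pileup of each Erbb4 region against its distance from the Erbb4 start in kb, in the direction of transcription, with WT upward and dKO downward. The 6 open orange circles are dKO-only regions inside the gene, and the region at 604 kb reaches 0.438 in WT and 2.29 in dKO.

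On chromosome 5, Epgn, Ereg, Areg and Btc lie in a row, and of the 14 open regions between Areg and Btc 6 were dKO-only and 6 of the 7 shared ones had a log2 ratio above 0. Of all shared regions near protein-coding genes, whatever their height, 18215 of 46759 had a ratio above 0. The lowest scaled pileup of the dKO list was 0.237, and the weakest of these shared regions had 0.233 in WT. A shared region that weak in WT can only have a ratio above 0, so its direction was fixed in advance. Over the 4 genes 2 regions were WT-only, 7 were dKO-only and 13 were shared, with a median log2 ratio of 0.54 at the shared ones, which was above 0 under each scaling tried for Areg, Epgn and Btc and below 0 for Ereg. Areg (gene 11839, 91139599 to 91148432), the ligand amphiregulin, had 3 dKO-only regions, 6 shared and 0 WT-only, the same 3 counts as 3 other genes of 15768. Of the 2119 genes with at least as many regions, 11.1% had a dKO-only excess of 3 or more. None of the dKO-only regions of Areg came from the stronger 50% of the dKO list by −log10 q. The median log2 ratio at its shared regions was 1.39, and it was 0.91 with fold enrichment.

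The start of Areg differed little, and the distal regions carried the difference. At the start (91139101 to 91140032) the pileup was 95 in WT and 57 in dKO, a log2 ratio of 0.20 (−0.30 to 0.69). At 27.3 kb past the start (91166499 to 91167329) the pileup was 25 in WT and 52 in dKO, so the scaled pileup was 4.0-fold higher in dKO (log2 ratio 2.00, 1.28 to 2.75). At 81.7 kb (91220117 to 91221615) it was 27 and 57, a 4.06-fold difference (2.02, 1.34 to 2.74), with the summits 933 bp apart. These are the members' largest differences after that at Erbb4. At 102.2 kb (91241624 to 91242401) the values were 17 and 27 (log2 ratio 1.61, 0.68 to 2.58), and at 64.9 kb (91204344 to 91204935) they were 17 and 20 (1.18, 0.17 to 2.1997). The remaining shared region, 59.2 kb past the start (91198549 to 91198883), had 33 and 25, and its interval reached below 0 (0.54, −0.27 to 1.34). With fold enrichment the 4 regions at 2-fold or more had log2 ratios of 1.10, 0.998, 1.39 and 0.81, in the same order. Their WT scaled pileups ran from 0.233 to 0.370, where the lowest of the WT list was 0.192. Of all shared regions under 0.5 in WT, 25.1% were at least 2-fold higher in dKO, against 3.04% of those from 1 to 2, the range of the start. The dKO-only regions of Areg lay among these distal regions, at 21.3, 30.9 and 63.1 kb past the start (91160649 to 91161116, 91170063 to 91170737 and 91202548 to 91202798), with pileups of 20, 35 and 19. WT peaks of the same scaled height would have had pileups of 38.4, 67.2 and 36.5.

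Btc (gene 12223, 91357261 to 91402994), encoding betacellulin, had 3 dKO-only regions, 3 shared and 1 WT-only. Its start (91402159 to 91403116) had 48 in WT and 30 in dKO (log2 ratio 0.26, −0.45 to 0.95). The dKO-only regions lay past the far end of the gene, towards Areg (91257993 to 91258419, 91296893 to 91297571 and 91303810 to 91304115), with pileups of 13, 20 and 14. In the same stretch a shared region (91282991 to 91284696) had 26 in WT and 30 in dKO, a log2 ratio of 1.15 (0.34 to 1.96). Nearer to the gene the pattern ended: a shared region (91307665 to 91308517) had 83 and 34 (−0.35, −0.97 to 0.25) and the next (91322133 to 91322503) was WT-only with a pileup of 27. Between the bodies of Areg and Btc, 209 kb without a protein-coding gene, 14 regions were thus divided into 1 WT-only, 6 dKO-only and 7 shared, of which 5 were at least 2-fold higher in dKO. This stretch was singled out after its values were seen. Of all regions between genes and over 10 kb from a gene, 17.3% were dKO-only and 21.7% WT-only, and 9.56% of the shared ones were at least 2-fold higher in dKO. Where such shared regions had a WT scaled pileup under 0.5, that share was 29.1%. The long noncoding RNA gene Gm19619 (91257571 to 91283076) had a dKO-only region at one end and the shared region of log2 ratio 1.15 at the other.

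**Figure D5:**
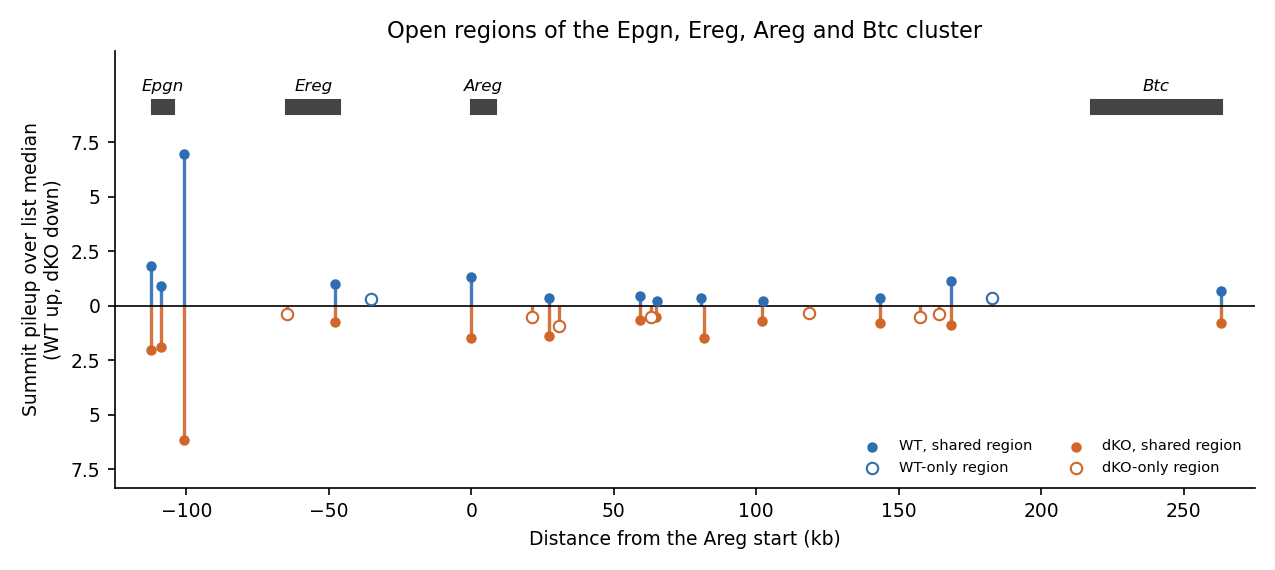
Scaled summit pileup of each region of Epgn, Ereg, Areg and Btc against its distance from the Areg start in kb, with WT upward and dKO downward and gene bodies as bars on top. Between Areg and Btc 6 open orange circles (dKO-only) stand against 1 open blue circle (WT-only), all of scaled pileup under 1, while the region past Epgn reaches 6.96 in WT.

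Epgn and Ereg had few regions. Epgn (gene 71920, 91027517 to 91035212) had 3 shared regions and none of a single genotype. The strongest region of the cluster lay 1.72 kb past its body (91036623 to 91039231), with a pileup of 508 in WT and 234 in dKO and a log2 ratio of −0.18 (−0.41 to 0.05). At the Epgn start (91027074 to 91027669) the pileups were 134 and 77 (0.14, −0.28 to 0.56). Inside the gene (91030085 to 91030918) they were 66 and 72, a log2 ratio of 1.07 (0.57 to 1.57) that was 0.72 with fold enrichment. Ereg (gene 13874, 91074617 to 91093649) had 1 region of each class. At its gene end of lower coordinate a dKO-only region (91074413 to 91074864) had a pileup of 14, which would equal 26.9 in WT. It overlapped the noncoding gene Gm19610 (91051269 to 91074935). It was the sole single-genotype region at an end of a member gene, where 3.55% of all regions at gene ends were dKO-only. Its shared region (91091480 to 91092094) had 72 in WT and 28 in dKO (−0.42, −1.11 to 0.23), and its WT-only region (91104348 to 91104570) had a pileup of 24.

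Hbegf and Tgfa, which lie on other chromosomes, had most of their shared regions lower in dKO by scaled pileup, but not by fold enrichment. By scaled pileup these were 4 of 4 at Hbegf and 4 of 6 at Tgfa. Most shared regions near any protein-coding gene also were lower, 28536 of 46759, with a median log2 ratio of −0.15. Hbegf (gene 15200, chromosome 18, 36504927 to 36515805) had 4 shared regions with log2 ratios from −0.92 to −0.27 and a median of −0.50, which turned to 0.32 with fold enrichment. Its strongest region, inside the gene (36513732 to 36514641), had 400 in WT and 143 in dKO (−0.54, −0.83 to −0.26). The region at its gene end of higher coordinate (36515515 to 36516710) had 288 and 124 (−0.27, −0.59 to 0.03). The largest difference lay 12.1 kb outside the gene (36492386 to 36493467), with 174 and 48 (−0.92, −1.41 to −0.45). One WT-only region (36503523 to 36503943) had a pileup of 35.

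Tgfa (gene 21802, chromosome 6, 86195038 to 86275744) held the shared region with the lowest log2 ratio of the 10 genes. At 24.6 kb past the start (86218980 to 86220629) the pileup was 425 in WT and 76 in dKO, so the scaled pileup was 2.91-fold lower in dKO (log2 ratio −1.54, −1.91 to −1.19). The region ranked above 93.4% of WT peaks and above 72.4% of dKO peaks by pileup. The local background there was 7.66 times the lowest of the list in WT and 2.93 times in dKO, and with fold enrichment the log2 ratio was −0.26. Of shared regions with a WT scaled pileup of at least 4, 8.52% were at least 2-fold lower in dKO. Beside it a dKO-only region (86222367 to 86222736) had a pileup of 35, and another (86252067 to 86252887) had 20. The start (86194672 to 86196230) had 113 in WT and 82 in dKO (0.48, 0.05 to 0.90). The strongest region of Tgfa, 43.2 kb past the gene (86318493 to 86319581), had 462 and 162 (−0.57, −0.84 to −0.31). Besides these, Tgfa had 1 WT-only region (86176379 to 86176808) with a pileup of 44. Its 9 regions comprised 6 shared, 2 dKO-only and 1 WT-only, with a median log2 ratio of −0.47 that was 0.05 with fold enrichment.

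The distance limit bears most on Areg and Btc. With a limit of 20 kb, 11 WT-only, 12 dKO-only and 43 shared regions were left, 6 shared regions were at least 2-fold higher in dKO, and 1 dKO-only region lay between genes. The WT-only minus dKO-only difference was then −1 at Areg and 0 at Btc, against −3 and −2 with 100 kb. Just inside 100 kb were the WT-only region 99.1 kb from Egfr and a dKO-only region 99.2 kb from Btc with a pileup of 13. Just outside were a shared region 133.5 kb from Erbb4 (69241713 to 69242477), with 31 in WT and 26 in dKO, and a dKO-only region 155.7 kb from it (67875990 to 67876357) with a pileup of 12.

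Other genes of the pathway were counted in the same way. Of 25 genes, 24 had regions, and WT-only regions outnumbered dKO-only ones at 11 and the reverse held at 9. Of the 262 regions, 18.3% (14.1 to 23.5) belonged to WT alone and 16.8% (12.8 to 21.8) to dKO alone, where 21.2% and 12.8% of all regions near genes did. The shares of all regions apply to each count below. The other ligands showed both directions. Nrg1, a neuregulin that binds ERBB3 and ERBB4, had 15 shared regions beside 4 WT-only and 7 dKO-only ones, and 7 of the 15 were at least 2-fold higher in dKO. Nrg4, also an ERBB4 ligand, had 5 dKO-only regions and no other, whereas Nrg2 had 8 WT-only and 1 dKO-only. Nrg3 had no region. Among 11 inhibitors of the receptors and their signal, 22 regions were WT-only (14.6%, 9.82 to 21.1), 25 dKO-only (16.6%, 11.5 to 23.3) and 104 shared. Of the shared ones 12 (11.5%) were at least 2-fold higher and 6 (5.77%) at least 2-fold lower in dKO, against 6.35% and 8.79% of all shared regions. Lrig1, a membrane protein that restrains EGFR, counted 8 in WT alone against 5 in dKO alone, and its relative Lrig2 counted 1 against 3. The 5 adaptor genes had 11 regions in WT alone (26.2%, 15.3 to 41.1) and 4 in dKO alone (9.52%, 3.77 to 22.1), intervals that hold the shares of all regions. Grb2, which links receptors to RAS activation, had 3 and 0. The 4 protease and rhomboid-like genes that control ligand release had 13 shared regions, 2 WT-only and 0 dKO-only.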

How the data were processed

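Bowtie2 2.2.9, Picard and MACS2 are named, with no role or order, in the submitters' processing notes, as are the builds mm10 and GRCm38. Per the labels, both mice of a genotype share 1 peak table, but how the mice were pooled and peaks called is not stated there. The deposited pileup is a signal counted in whole numbers and unscaled. The deposited fold is a ratio of pileup to local background, and the deposited −log10 p and −log10 q values were identified by position because their headers are damaged. That reading was checked by a Poisson p from pileup and background, which came within 0.05 of the deposited value (on the −log10 scale, below 250) for 99.98% of 62811 peaks in WT and 99.997% of 62822 in dKO. Both lists end at a −log10 q of 1.30.

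Mitochondrial peaks (5 in WT, 3 in dKO) were left out. Peaks overlapping by at least 1 bp were joined. Each region took the highest peak of each list, and gene bodies, without strand, came from RefSeq (GRCm38.p6). A gene end is within 1 kb of either end. Overlaps and nearest-gene distances were tested against bedtools 2.31.1, with a difference of 0, and the 2-fold rule on simulated data. Exact intervals came from scipy 1.17.1. The members, lists and tests were chosen with earlier results of these data known. All 10 genes are described, with each single-genotype region, each shared region past 2-fold, and the strongest and start or end regions. Of the other pathway genes, up to 3 per direction are named where WT-only and dKO-only counts differ by 2 or more, and Lrig2 and Nrg3 were added after their values were seen. Alternatives covered overlap, threshold, list length, depth, gene assignment, gene-end width and scaling.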

Additional observations from a re-analysis of the deposited data

How the results depend on the processing

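With 1 list per genotype no mouse could be left out. No paired analysis was possible because the genotypes share no mouse number and each has 1 list. Of 73 values of counts, places and ratios under the alternatives, 58 stayed within 1.5 times or within the interval of the reported value. With summits within 200 bp, 22 regions were WT-only and 27 dKO-only. Single-genotype peaks from the stronger 50% of a list by deposited −log10 q left 3 WT-only regions, all at Egfr, and 0 dKO-only. With nearest genes within 20 kb, the median log2 ratio was −0.14, 6 shared regions were at least 2-fold higher in dKO and 1 dKO-only region lay between genes. Every region within 100 kb of a member gave 28 regions in WT alone, 26 in dKO alone and 95 in both, with a median of −0.19, and turned the WT-only minus dKO-only difference of Tgfa from −1 to 1. With peaks of q up to 1e-05 kept, 1 shared region was at least 2-fold lower in dKO. Scaled to shared peaks, the median log2 ratio was 0.28 and 1 region was at least 2-fold lower, against 6.04% of all shared regions. With fold enrichment 4 were higher and 0 lower, against 2.29% and 2.62% of all shared regions. With gene ends within 2 kb, 1 WT-only region lay at a gene end. The WT-only excess of Egfr ran from 3 to 7 over 9 alternatives, and the difference at Erbb4 ran from −6 to 0 and that at Areg from −5 to 0, with 0 for both where the stronger 50% was required. Thinning the WT list to the dKO background kept 66847 of 68192 WT peaks and left these 3 differences at 7, −6 and −3. Thinning drops WT peaks only, so it could have lowered the excess of Egfr. It could not have brought the differences of Erbb4 and Areg nearer to 0, and is no check of those. Depth limits the weak peaks: the lowest listed pileup was 14 in WT and 9 in dKO.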

Other observations

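From the Areg start to 53.3 kb short of Btc, 13 regions in a row (chromosome 5, 91139101 to 91304115, 165 kb) were dKO-only or had a log2 ratio above 0. Across the genome 40.0% of regions did so, in 15167 runs, of which 83 were at least as long. This count was made after the pattern was seen, and the runs were not matched for WT height. Apart from the Areg start, the shared regions of this run had WT scaled pileups from 0.233 to 0.452. The lowest of the dKO list was 0.237, so weak WT regions had little room for a ratio below 0.

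Summits of a shared region were not always in the same place. At Egfr they lay 1107 bp apart in the region 40.3 kb into the gene (16791247 to 16792700), with pileups of 119 in WT and 76 in dKO. At the Erbb4 start they lay 817 bp apart within a region of 3554 bp.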
